A study of Mus musculus with 51 samples.

Results

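AFT024 is a stromal clone from mouse fetal liver (FL) that the labels class as supportive of hematopoietic stem and progenitor cells. It was grown for 4 days with or without KLS cells, the c-Kit+Sca1+Lin- fraction of adult bone marrow in which stem and progenitor cells are enriched, and the stroma was then purified as the cells lacking the leukocyte antigen CD45. The 6 arrays titled for this experiment were taken, 3 of AFT024+KLS and 3 of AFT024-KLS, out of 51 in the series. The other sorted stroma, 3 arrays of BFC012+KLS and 3 of BFC012-KLS, served as a comparison and came from an FL clone that the labels class as non-supportive. All 4 groups were C57BL/6, from embryonic day 14.5, and carried no other treatment in the labels. Each line is 1 clone, so its values describe that clone. The labels give no culture medium for either condition, and they do not state whether the 3 arrays of a group were separate cultures. The p-values therefore reflect variation among these arrays only, and that variation may be technical.

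Stromal cells of the fetal liver and bone marrow hold hematopoietic stem cells in place and feed them with factors such as stem cell factor (Kitl) and the chemokine CXCL12. Signals also run from the blood cells to the stroma. Mesenchymal stroma can respond to glucocorticoids, which act through a nuclear receptor, to cytokines that induce acute-phase proteins, to metals and oxidants, to low oxygen and to interferons, and each of these is known for its own group of induced genes.

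Expression was measured as log2 signal per gene on Affymetrix arrays for 19938 genes. The arrays were normalized together, with medians over all probe sets of 5.68 to 5.70 in AFT024+KLS and 5.65 to 5.71 in AFT024-KLS. Replicate 1 of AFT024+KLS correlated at 0.977 and 0.978 with replicates 2 and 3, which correlated at 0.990 with each other. Replicate 1 of AFT024-KLS stood apart likewise, at 0.979 and 0.980, against 0.993 between replicates 2 and 3. The third array that stood apart was replicate 1 of BFC012-KLS, at 0.975 and 0.977.

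Genes that distinguish the lines were used to check the labels. The 50 genes with the largest difference of AFT024 over BFC012 in separate confluent cultures were taken, and those still at least 2 log2 units apart in sorted stroma were compared in each array. The library labelled AFT024+KLS replicate 1 was nearer to the BFC012 level than to the level of the other AFT024 arrays in 16 of 31 such genes. The other 5 AFT024 arrays were nearer to BFC012 in 0 to 2 of 26 to 29. Bche, which encodes butyrylcholinesterase, measured 4.07 in that library, against 8.66 and 8.41 in AFT024+KLS replicates 2 and 3 and 7.59 to 8.61 in AFT024-KLS, while the 6 BFC012 arrays lay at 3.87 to 4.12. Other marks of AFT024 were kept in it: Xist, the noncoding RNA of the inactive X chromosome, measured 9.97, against 9.83 to 10.75 in the other AFT024 arrays and 3.72 to 4.18 in BFC012, and the imprinted Peg10 measured 10.12, against 9.44 to 10.16 and 4.72 to 5.19. Of 22 genes chosen in the same way for BFC012 over AFT024, 3 were nearer to the BFC012 level in this library. It thus goes against its label in part of these genes, and the cause was not tested. Calls and differences below are for all 3 replicates unless replicates 2 and 3 are named, and the value with replicates 2 and 3 only is given beside those of the main genes.

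**Figure D1:**
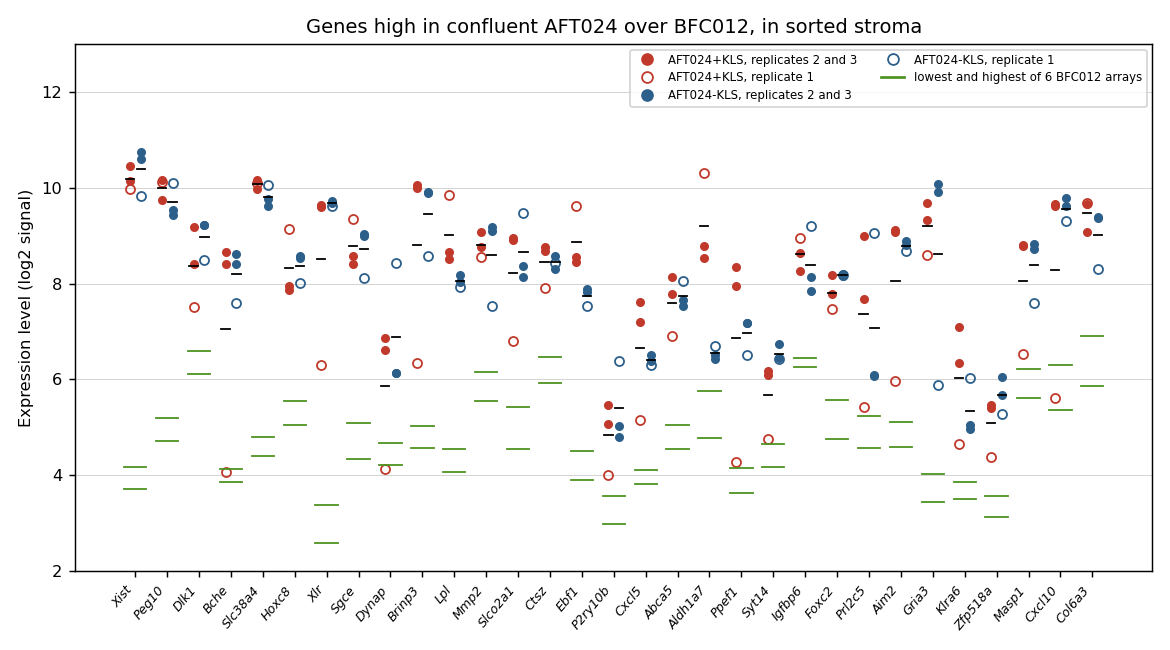
Level (log2 signal) of 31 genes that were high in confluent AFT024 over BFC012, in the 3 AFT024+KLS arrays (red, left of each pair) and the 3 AFT024-KLS arrays (blue, right), with replicate 1 as open circles, black bars at the group means and green lines at the lowest and highest of the 6 BFC012 arrays. The open red circles lie within or near the green lines for Bche, Dynap and Ppef1 and among the other AFT024 arrays for Xist, Peg10 and Slc38a4.

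Replicate 1 of AFT024-KLS also differed from replicates 2 and 3 in whole gene groups. The mean level of 18 senescence genes and targets of the tumour suppressor p53 was 7.02 in it. That mean was 8.35 and 8.38 in AFT024-KLS replicates 3 and 2 and 8.05 to 8.25 in AFT024+KLS. For 37 interferon-stimulated genes the mean was 5.59 in AFT024+KLS replicate 1 and 7.06 to 7.17 in AFT024+KLS replicates 2 and 3, and it was 5.74 in AFT024-KLS replicate 1 and 7.47 and 7.48 in AFT024-KLS replicates 2 and 3.

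Markers of stroma and of blood cells were then read in the 6 arrays. Vim, the filament protein of mesenchymal cells, measured 11.68 to 12.00 in AFT024+KLS and 11.67 to 11.75 in AFT024-KLS, and Sparc, a matrix glycoprotein, 12.05 to 12.26 and 12.10 to 12.31. Ptprc, the gene of CD45, measured 4.29 to 4.44 in AFT024+KLS and 4.25 to 4.30 in AFT024-KLS, and Kit measured 4.71 to 4.75 and 4.75 to 5.0. Of 18 pan-leukocyte markers 0 passed the test under either setting, with a mean level of 5.02 to 5.10 in AFT024+KLS and 4.94 to 5.11 in AFT024-KLS. S100a9, a calcium-binding protein abundant in neutrophils, measured 6.34 in AFT024+KLS replicate 3, against 4.07 to 4.39 in the other 5 arrays. For 18 granulocyte markers the mean was 4.92 in that array, 4.63 and 4.71 in the other AFT024+KLS arrays and 4.50 to 4.58 in AFT024-KLS, and 0 of 18 passed the test. Lyz2 and Mmp8 were also highest in it, at 5.0 and 4.47, and the part of such transcripts in the results was not tested.

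With all arrays, culture with KLS cells changed few genes in AFT024 stroma by the test, and more of them rose than fell. In all, 69 genes had an adjusted p under 0.05 in limma (0.346% of those tested), of which 58 were higher (0.291%) and 11 lower (0.0552%). At least 2-fold differences were found for 36 of the higher and 3 of the lower genes, and 1847 genes had an unadjusted p under 0.05. With replicates 2 and 3 only, 225 genes were called (1.13%), 159 higher (0.797%) and 66 lower (0.331%). Of the 69, 54 were called again with replicates 2 and 3. The AFT024+KLS and AFT024-KLS arrays did not overlap for any of the 69, so the sign with replicates 2 and 3 was fixed in advance. Passing the test with 3 arrays a group itself favours such separation. The share of all genes without overlap was not counted, so the lack of overlap adds no support. The count depended on single arrays: it was 146 without AFT024+KLS replicate 1 (132 higher and 14 lower), 22 without AFT024+KLS replicate 2, and 29 and 24 without AFT024-KLS replicates 2 and 3. Because the spread was pooled with the BFC012 arrays, the count was also 40 and 33 without BFC012+KLS replicates 1 and 2, and 112, 42 and 44 without BFC012-KLS replicates 1, 2 and 3. The balance of directions depended on them too: without AFT024-KLS replicate 1 there were 54 higher and 40 lower genes, and with the 4 AFT024 arrays of replicates 2 and 3 alone 536 higher and 437 lower.

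**Figure D2:**
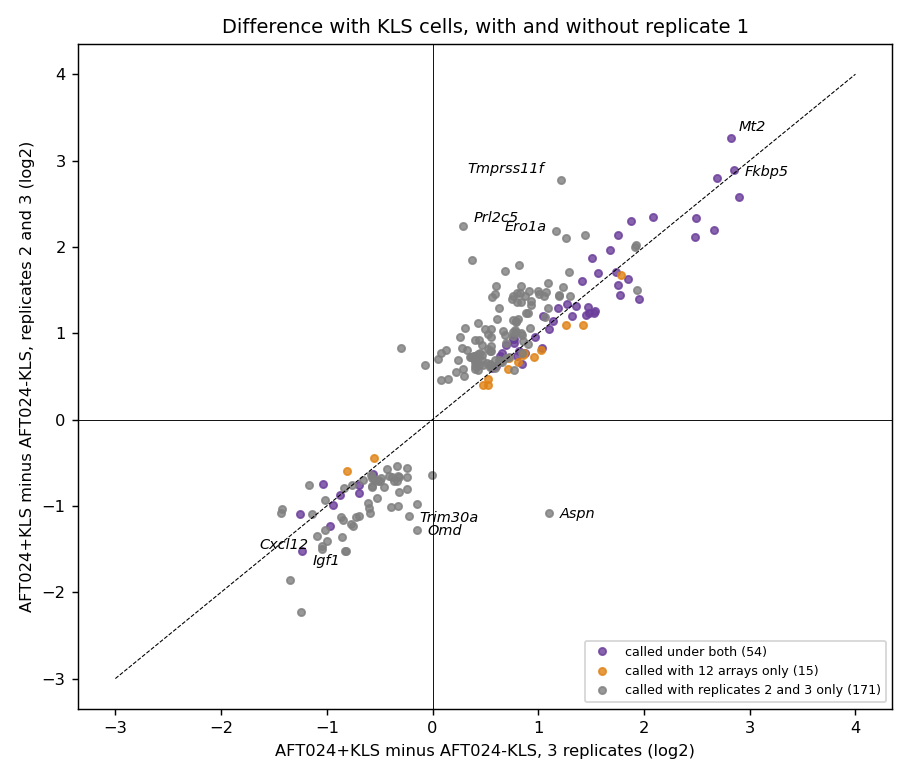
Difference of AFT024+KLS minus AFT024-KLS (log2) of each gene called under either setting, with all 3 replicates on the x axis and with replicates 2 and 3 only on the y axis; the dashed line marks equal values. The 54 genes called under both settings lie along the line, and the 171 called with replicates 2 and 3 only are mostly steeper than it, with Aspn on the opposite side of 0.

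The gene with the largest rise was Fabp4, which encodes the fatty acid binding protein of adipocytes. It measured 10.41, 9.89 and 9.89 in the 3 AFT024+KLS arrays, against 6.86, 7.14 and 7.49 in the AFT024-KLS arrays. The groups lay more than 2 log2 units apart, a difference of 2.90 ± 0.28 (SE) or 7.46-fold (adjusted p = 0.00125), and of 2.57 with replicates 2 and 3 (adjusted p = 0.0043). Other members of the adipocyte list did not move with it to the same extent. Of 23, 1 rose by the test with all arrays, where 0.291% of all genes did, and 2 with replicates 2 and 3, where 0.797% did. The second of these was the lipase Pnpla2 at 0.58. The list had a median difference of 0.58 with all arrays and 0.26 with replicates 2 and 3, where the median over all genes tested was 0.01 and 0.00. Pparg, the nuclear receptor that drives adipocyte formation, had a difference of 0.83 (adjusted p = 0.131). Adipoq, the adipocyte hormone adiponectin, measured 6.30, 4.00 and 4.07 in AFT024+KLS and 3.73 to 3.94 in AFT024-KLS, so it was high in replicate 1 alone. In these bulk samples a shift in the share of a cell type and a shift in RNA per cell cannot be told apart.

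Genes known to be induced by glucocorticoids had more members called with all arrays than any other list. Of 23 measured, 8 rose with all arrays, where 0.291% of all genes did, and 9 rose with replicates 2 and 3, where 0.797% did. In it 0 fell under either setting. The gene lists were chosen with earlier results of these data known, so their counts are descriptions and not independent support. The median difference of the list was 0.97 with all arrays and 0.60 with replicates 2 and 3. The mean level of the list was 7.21 to 7.60 in AFT024+KLS and 6.41 to 6.49 in AFT024-KLS, without overlap. Fkbp5, a co-chaperone that binds the glucocorticoid receptor complex and is itself a receptor target, measured 9.11, 9.05 and 8.68 in AFT024+KLS. In AFT024-KLS it measured 6.34, 5.81 and 6.15. The difference was 2.85 ± 0.21 (SE), or 7.19-fold (adjusted p = 0.000321), and 2.89 with replicates 2 and 3 (adjusted p = 0.00075).

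Transcription factors of this list rose as well. Zbtb16 (PLZF) measured 8.38, 6.96 and 6.63 in AFT024+KLS, against 5.33, 5.35 and 5.43 in AFT024-KLS. Its difference was 1.95 ± 0.33 (SE, adjusted p = 0.037) with all arrays and 1.40 with replicates 2 and 3 (adjusted p = 0.000836), and replicate 1 of AFT024+KLS was the highest array. Klf9, a Krüppel-like factor, measured 8.30, 7.59 and 7.57 in AFT024+KLS and 6.17, 6.41 and 6.28 in AFT024-KLS, a difference of 1.53 ± 0.19 (SE, adjusted p = 0.00809) and of 1.23 with replicates 2 and 3 (adjusted p = 0.00653). Tsc22d3 (GILZ), a mediator of the anti-inflammatory action of glucocorticoids, rose by 0.97 with all arrays and 0.95 with replicates 2 and 3, and the clock gene Per1 by 1.03 and 0.83. Errfi1, an inhibitor of the EGF receptor, rose by 1.43 with all arrays (adjusted p = 0.035) but with replicates 2 and 3 had a difference of 1.09 (adjusted p = 0.0735).

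Some members of the list behaved otherwise. Glul, glutamine synthetase, measured 11.22, 10.25 and 10.29 in AFT024+KLS and 9.47, 8.44 and 8.09 in AFT024-KLS. The arrays did not overlap, yet it was called with replicates 2 and 3 only (difference 2.00, adjusted p = 0.00481), against 1.92 with all arrays (adjusted p = 0.0625). Cebpd, a C/EBP transcription factor, measured 8.06 in AFT024+KLS replicate 1 and 6.60 and 5.89 in replicates 2 and 3, against 5.50 to 6.06 in AFT024-KLS, and passed under neither setting. Nr3c1, the receptor itself, was also not called.

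**Figure D3:**
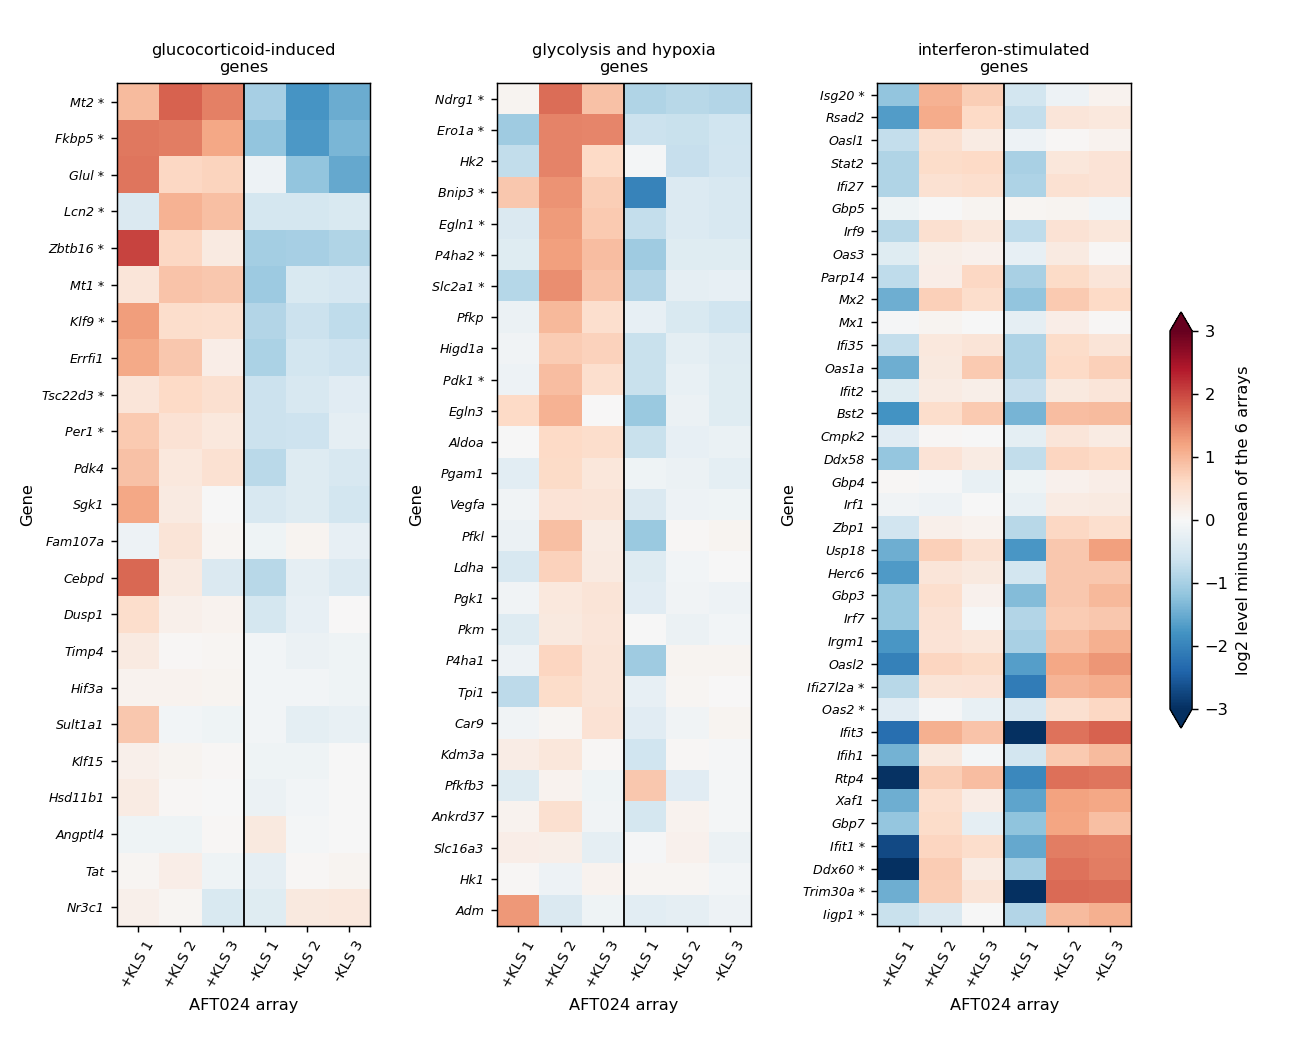
Level of each measured member of 3 gene lists in the 6 AFT024 arrays (AFT024+KLS left of the line, AFT024-KLS right), as log2 signal minus the mean of the 6 arrays; an asterisk marks genes called with replicates 2 and 3, and values past either end of the scale take its last colour. In the glucocorticoid-induced list the 8 genes called with all arrays are higher in each AFT024+KLS array, in the glycolysis and hypoxia list AFT024+KLS replicates 2 and 3 are the highest arrays for most genes, and in the interferon list both replicate 1 arrays are low.

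The metallothioneins Mt1 and Mt2, small proteins that bind zinc and copper, are induced by metals as well as by glucocorticoids and were counted in both lists. Mt2 measured 10.53, 11.34 and 11.09 in AFT024+KLS, against 8.59, 7.81 and 8.10 in AFT024-KLS. Its difference was 2.82 ± 0.37 (SE), or 7.08-fold (adjusted p = 0.00978), and 3.26 with replicates 2 and 3 (adjusted p = 0.00606). Mt1 measured 10.94, 11.41 and 11.38 in AFT024+KLS and 9.49, 10.10 and 10.07 in AFT024-KLS, and rose by 1.36 ± 0.20 (SE, adjusted p = 0.0202), and by 1.31 with replicates 2 and 3 (adjusted p = 0.00728). The 2 genes are close relatives, and the probe sets may share part of their signal.

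Promoters of both genes are shown because metallothionein genes are known for repeated metal response elements near their starts. The windows run from 250 bases before to 50 bases after the annotated start, from RefSeq on GRCm38.p6, and capitals mark TGCNCNC on either strand. Mt2 (chr8:94172368-94172667, plus strand) held it at 6 places and Mt1 (chr8:94178839-94179138, plus strand) at 3. A share of 51.0% of all 32851 promoters held it at least once.
Mt2: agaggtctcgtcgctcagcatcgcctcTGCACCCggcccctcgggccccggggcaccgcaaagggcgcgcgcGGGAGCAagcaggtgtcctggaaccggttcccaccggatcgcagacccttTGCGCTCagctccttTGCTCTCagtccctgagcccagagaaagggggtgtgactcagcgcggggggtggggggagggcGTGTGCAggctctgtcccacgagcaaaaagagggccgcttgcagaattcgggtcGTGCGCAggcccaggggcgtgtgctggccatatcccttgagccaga
Mt1: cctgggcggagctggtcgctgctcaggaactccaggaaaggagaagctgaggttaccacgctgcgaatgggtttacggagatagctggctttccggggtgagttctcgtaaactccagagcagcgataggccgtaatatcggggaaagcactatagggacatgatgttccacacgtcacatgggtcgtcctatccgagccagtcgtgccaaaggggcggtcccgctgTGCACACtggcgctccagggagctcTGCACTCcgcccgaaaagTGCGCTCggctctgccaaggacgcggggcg

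The same motifs were counted over the genes that rose with all arrays. Their promoters numbered 58, from 42 of the 58 genes, and TGCNCNC was present in 55.2% of them, against 55.9% for all genes tested. The palindrome bound by the glucocorticoid receptor, searched on both strands, was present in 1 of the 58, that of Mt1, and in 0.412% for all genes tested. TTCNNNGAA, a form of the site bound by STAT proteins, was present in 15.5%, against 7.66%; among the 163 promoters of genes higher with replicates 2 and 3 it was present in 7.98%. TGACNNNGC, a core of the antioxidant response element, was present in 13.8%, against 13.2%, and in 13.5% with replicates 2 and 3. TGCNCNC was present in 57.1% and the receptor palindrome in 0.613% of those 163. These counts are descriptions, the windows are short, and nothing was inferred about binding.

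Beyond the metallothioneins, the enzyme of glutathione synthesis Gclc rose. This catalytic subunit of glutamate-cysteine ligase measured 9.80, 9.95 and 9.82 in AFT024+KLS, against 8.25, 7.65 and 7.44 in AFT024-KLS, a difference of 2.08 ± 0.18 (SE, adjusted p = 0.000581) and of 2.34 with replicates 2 and 3 (adjusted p = 5.25e-05). Of 24 metallothionein and NRF2 genes, 3 rose with all arrays, where 0.291% of all genes did, and 4 with replicates 2 and 3, where 0.797% did, with a list median of 0.16 and 0.45. The fourth was Hmox1, heme oxygenase, which measured 8.78, 10.39 and 10.48 in AFT024+KLS and 8.70, 9.28 and 9.25 in AFT024-KLS. In Hmox1 the AFT024+KLS replicate 1 lay within the AFT024-KLS range, and the difference was 1.17 with replicates 2 and 3 (adjusted p = 0.0123) against 0.81 with all arrays (adjusted p = 0.556). Gstm1, a glutathione transferase, and the cystine transporter Slc7a11 had differences of 0.80 and 0.85, and of 0.48 and 1.84 with replicates 2 and 3, and were not called under either setting.

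Acute-phase proteins are secreted by the liver in inflammation. They were listed together with targets of IL6 and STAT3 signalling. Of 30 genes of this joint list, 3 rose with all arrays (0.291% of all genes) and 4 with replicates 2 and 3 (0.797% of all genes). In it 0 fell, and the list median was 0.33 and 0.20. Orm1 measured 7.54, 7.75 and 7.81 in AFT024+KLS and 5.06, 5.14 and 4.81 in AFT024-KLS. Its difference was 2.69 ± 0.22 (SE), or 6.47-fold (adjusted p = 0.000572), and 2.80 with replicates 2 and 3 (adjusted p = 0.00188). Orm3 measured 7.01, 6.62 and 6.74 in AFT024+KLS and 4.18, 4.54 and 4.16 in AFT024-KLS (difference 2.5 ± 0.21, SE, and 2.33 with replicates 2 and 3). Orosomucoids are plasma glycoproteins encoded by near-identical neighbouring genes, so the 2 values may not be independent.

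Haptoglobin (Hp), which binds free hemoglobin, measured 6.49, 6.68 and 6.14 in AFT024+KLS, against 4.33, 4.94 and 4.76 in AFT024-KLS (difference 1.76 ± 0.23, SE, adjusted p = 0.00945). The value with replicates 2 and 3 was 1.56 (adjusted p = 0.0228). Lcn2, a siderophore-binding lipocalin that also stands in the glucocorticoid list, was called with replicates 2 and 3 only (1.46, against 1.01 with all arrays): it measured 5.31, 6.77 and 6.65 in AFT024+KLS and 5.21, 5.22 and 5.29 in AFT024-KLS. The protease inhibitor Serpina3n and ceruloplasmin (Cp) had differences of 1.86 and 1.77 without overlap between the groups but were not called under either setting (adjusted p = 0.274 and 0.386 with all arrays). Serpina3n measured 7.23, 7.52 and 5.48 in AFT024+KLS, so its arrays were far apart within the group.

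Among the other genes with the largest rises, Aldh1a7, a cytosolic aldehyde dehydrogenase, measured 10.31, 8.78 and 8.54 in AFT024+KLS and 6.70, 6.51 and 6.42 in AFT024-KLS. Its difference was 2.67 ± 0.35 (SE, adjusted p = 0.00945) and 2.19 with replicates 2 and 3 (adjusted p = 5.25e-05). Ctla2a, a protein resembling the propeptide of cysteine proteases, measured 8.88, 8.77 and 8.90 in AFT024+KLS and 5.65, 6.61 and 6.84 in AFT024-KLS (difference 2.48 ± 0.24, SE, and 2.11 with replicates 2 and 3). The AFT024+KLS arrays lay close together in this gene, and AFT024-KLS replicate 1 was the lowest array. Ccbe1, a secreted protein needed for lymphatic vessel growth, measured 6.57, 7.96 and 7.68 in AFT024+KLS and 5.55, 5.63 and 5.41 in AFT024-KLS (difference 1.87 ± 0.27, SE, and 2.30 with replicates 2 and 3). The liver protein Fgl1 and the interferon-inducible Ifi207 rose by 1.85 and 1.77, and by 1.63 and 1.44 with replicates 2 and 3.

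Fewer genes fell, and by less. Map2k6, a kinase that activates p38, measured 5.50, 6.13 and 5.78 in AFT024+KLS, against 7.08, 7.04 and 7.05 in AFT024-KLS (difference -1.25 ± 0.14, SE, adjusted p = 0.00339, and -1.09 with replicates 2 and 3). Igf1, a growth factor made by stroma and part of the list of niche factors, measured 5.47, 5.42 and 5.02 in AFT024+KLS and 6.15, 6.90 and 6.59 in AFT024-KLS. It fell by 1.24 on the log2 scale with all arrays (adjusted p = 0.0367) and by 1.52 with replicates 2 and 3 (adjusted p = 0.00899). Tm4sf1, a membrane protein of the tetraspanin-like family, measured 8.93, 8.91 and 8.82 in AFT024+KLS and 9.78, 9.82 and 9.89 in AFT024-KLS, and Znhit6, which takes part in the assembly of small nucleolar ribonucleoproteins, measured 9.10, 9.17 and 9.20 in AFT024+KLS and 9.97, 10.03 and 10.09 in AFT024-KLS. In both genes the 3 replicates of a group lay close together, and replicate 1 did not stand apart. The differences were -0.94 and -0.87 with all arrays and -0.99 and -0.87 with replicates 2 and 3.

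The other lower genes were the heparan sulfate sulfotransferase Hs6st2 (-1.04), the transcription cofactor Lbh (-0.97), the RNA-binding protein Mex3a (-0.81), the chemokine-like factor Cklf (-0.70), the survival factor Bcl2 (-0.69), the kinase Nlk (-0.57) and the ubiquitin ligase Obi1 (-0.55). With replicates 2 and 3 the values were -0.74 for Hs6st2, -1.23 for Lbh, -0.60 for Mex3a, -0.85 for Cklf, -0.76 for Bcl2, -0.63 for Nlk and -0.45 for Obi1, of which Mex3a and Obi1 were not called (adjusted p = 0.105 and 0.091). Ggct, an enzyme of glutathione breakdown, had the smallest p among the lower genes that did not pass (-0.94, adjusted p = 0.0538).

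**Figure D4:**
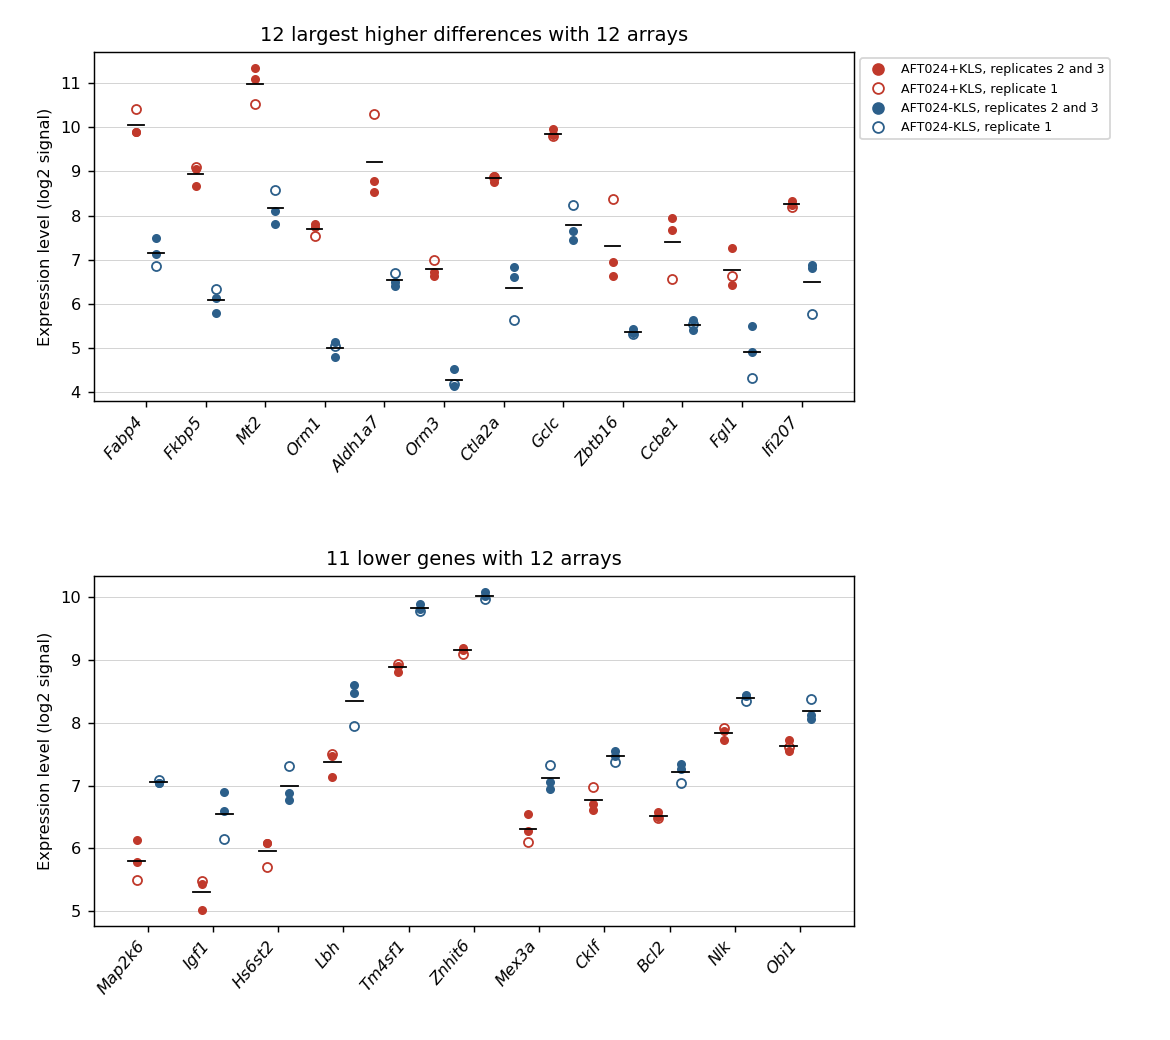
Level (log2 signal) of the 12 named genes with the largest rises (top) and of the 11 genes that fell (bottom), in AFT024+KLS (red, left of each pair) and AFT024-KLS (blue, right), with replicate 1 as open circles and black bars at the means of 3 arrays. The genes were chosen among those whose groups do not overlap, so the lack of overlap adds nothing. Replicate 1 is the highest AFT024+KLS array for Zbtb16 and Aldh1a7 and the lowest for Ccbe1.

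Calls for single genes differed in how far they rested on 1 array. This was read for the 28 called genes named for the largest differences with all arrays or from a list. Rhoj and Dpep1, named for the difference between the lines, were not among them. Of the 28, 10 stayed past the threshold when any 1 of the 12 arrays was left out: Fabp4, Fkbp5, Orm1, Orm3, Ctla2a, Gclc, Klf9, Map2k6, Tm4sf1 and Znhit6. Hp lost its call only without AFT024+KLS replicate 2, Aldh1a7 only without AFT024-KLS replicate 3, and Mt2 without AFT024+KLS replicate 2 or AFT024-KLS replicate 2 or 3. Fgl1 and Hs6st2 lost it without AFT024+KLS replicate 2 or AFT024-KLS replicate 3, and Ifi207 without AFT024+KLS replicate 2 or 3. Ccbe1 and Cklf lost it without any 1 of AFT024+KLS replicates 2 and 3 and AFT024-KLS replicates 2 and 3. Mt1 lost it without AFT024+KLS replicate 2 or 3, AFT024-KLS replicate 3 or BFC012+KLS replicate 2. Zbtb16, Igf1, Lbh, Mex3a, Bcl2, Nlk, Obi1, Ndrg1 and Errfi1 lost it under 7 to 11 of the 12 omissions.

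Glycolysis and hypoxia genes, which the factor HIF1 induces at low oxygen, separated the 2 settings. Of 27, 1 rose with all arrays and 7 with replicates 2 and 3, where 0.797% of all genes did, and 0 fell. The list median was 0.59 and 0.55, while the calls differed. Ndrg1, a stress-response gene, was the member called under both: it measured 7.03, 8.62 and 7.83 in AFT024+KLS and 6.05, 6.12 and 6.06 in AFT024-KLS, a difference of 1.75 ± 0.30 (SE, adjusted p = 0.0381) and of 2.14 with replicates 2 and 3 (adjusted p = 0.00319). Ero1a, an oxidase of the endoplasmic reticulum, measured 9.27, 11.82 and 11.81 in AFT024+KLS, against 9.69, 9.68 and 9.74 in AFT024-KLS. Its replicate 1 lay below all AFT024-KLS arrays, and the difference was 1.26 with all arrays (adjusted p = 0.528) and 2.10 with replicates 2 and 3 (adjusted p = 0.0117).

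Egln1, the prolyl hydroxylase that marks HIF for degradation, measured 8.24, 9.95 and 9.45 in AFT024+KLS and 7.97, 8.25 and 8.18 in AFT024-KLS. The glucose transporter gene Slc2a1 measured 7.92, 10.17 and 9.62 in AFT024+KLS and 7.88, 8.51 and 8.53 in AFT024-KLS. In both genes AFT024+KLS replicate 1 lay within the AFT024-KLS range. P4ha2, a collagen prolyl hydroxylase, Bnip3, a mitophagy receptor, and Pdk1, a kinase that restrains pyruvate oxidation, were the other 3 called with replicates 2 and 3, with differences of 1.44, 1.5 and 1.00. Bnip3 measured 10.23, 10.77 and 10.16 in AFT024+KLS and 7.42, 9.0 and 8.93 in AFT024-KLS, without overlap. Adm, which encodes adrenomedullin, and the lactate exporter Slc16a3 were not called.

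The promoters of Ero1a and P4ha2 are shown because the core of the hypoxia response element, ACGTG, lies in both windows; capitals mark it on either strand. It was present in 71.4% of the promoters of the genes called with replicates 2 and 3 (5 of 7 promoters, from 6 of the 7 genes) and in 58.6% of the promoters of the other list members (17 of 29). Of promoters of all genes tested 21.6% held it, and ACGTG overlaps the E-box CACGTG. Ero1a lies at chr14:45318523-45318822 on the minus strand and P4ha2 at chr11:54100674-54100973 on the plus strand (RefSeq, GRCm38.p6).
Ero1a: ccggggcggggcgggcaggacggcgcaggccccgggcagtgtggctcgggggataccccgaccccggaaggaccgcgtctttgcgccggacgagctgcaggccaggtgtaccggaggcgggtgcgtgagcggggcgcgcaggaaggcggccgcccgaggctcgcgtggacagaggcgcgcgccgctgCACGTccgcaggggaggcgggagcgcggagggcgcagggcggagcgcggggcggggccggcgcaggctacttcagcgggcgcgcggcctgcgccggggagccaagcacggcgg
P4ha2: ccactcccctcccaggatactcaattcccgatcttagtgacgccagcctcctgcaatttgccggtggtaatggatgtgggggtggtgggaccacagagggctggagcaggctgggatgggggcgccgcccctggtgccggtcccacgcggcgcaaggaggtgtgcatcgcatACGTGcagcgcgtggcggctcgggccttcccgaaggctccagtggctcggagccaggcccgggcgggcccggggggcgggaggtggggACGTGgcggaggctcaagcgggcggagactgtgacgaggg

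Interferon-stimulated genes that were called were mostly lower with KLS cells. Of 37, 0 were called with all arrays, while with replicates 2 and 3 there were 6 that fell, where 0.331% of all genes did, and 1 that rose. Both replicate 1 arrays were below the other 4 in most members. The list median was -0.21 with all arrays and -0.34 with replicates 2 and 3. Trim30a, a tripartite motif protein, measured 7.09, 9.29 and 8.94 in AFT024+KLS and 5.51, 10.26 and 10.22 in AFT024-KLS, and fell by 1.12 on the log2 scale between replicates 2 and 3 of the groups (adjusted p = 0.0423). Iigp1, an immunity-related GTPase, measured 3.85, 4.08 and 4.52 in AFT024+KLS and 3.64, 5.47 and 5.59 in AFT024-KLS. Both replicate 1 arrays lay below the AFT024-KLS replicates 2 and 3 in each of these genes, and the groups of 3 overlapped.

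Ddx60, an RNA helicase, Ifit1, an RNA-binding antiviral protein, Oas2, an oligoadenylate synthetase, and Ifi27l2a were the other members that fell with replicates 2 and 3, by 1.08, 0.94, 0.67 and 0.65. Isg20, an exonuclease, was the member that rose (0.92, adjusted p = 0.0484). Rtp4 measured 5.24, 8.94 and 9.14 in AFT024+KLS and 6.27, 9.87 and 9.83 in AFT024-KLS, and neither it nor Ifih1 and Herc6 passed. In Rtp4 and Ifit1 replicate 1 lay farther from replicates 2 and 3 of its own group than the conditions lay from each other.

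Chemokines and NF-kB targets did not move in 1 direction. Of 40, 0 were called with all arrays. Ccl9 and Cxcl5 rose and Ccl5 fell with replicates 2 and 3, where 0.797% of all genes rose and 0.331% fell. Ccl5, a T-cell and monocyte attractant, measured 7.22, 9.91 and 9.69 in AFT024+KLS and 9.42, 10.82 and 10.84 in AFT024-KLS (difference -1.03 with replicates 2 and 3, adjusted p = 0.00315). Cxcl10 measured 5.61, 9.65 and 9.62 in AFT024+KLS and 9.30, 9.61 and 9.79 in AFT024-KLS. Its difference of -1.27 with all arrays (adjusted p = 0.717) was -0.07 with replicates 2 and 3, so it rested on AFT024+KLS replicate 1. Ccl2, Vcam1 and the NF-kB inhibitor gene Nfkbia had differences of -0.62, -0.82 and 0.57 and were not called under either setting.

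Factors by which stroma acts on stem cells were mostly not called. Of 35 niche factors, Igf1 fell with all arrays (0.0552% of all genes), and Igf1 and Cxcl12 fell with replicates 2 and 3 (0.331% of all genes), with 0 higher. Cxcl12, the chemokine that retains stem cells, measured 8.01, 8.86 and 8.44 in AFT024+KLS and 8.50, 9.98 and 9.89 in AFT024-KLS. It fell by 1.28 on the log2 scale with replicates 2 and 3 (adjusted p = 0.0213), while the groups of 3 overlapped and the difference of -1.02 was not called (adjusted p = 0.332). Kitl, stem cell factor, measured 9.34, 8.39 and 8.38 in AFT024+KLS and 7.42, 7.41 and 7.44 in AFT024-KLS. The groups did not overlap, yet the difference of 1.28 ± 0.34 (SE) was not called (adjusted p = 0.175), nor was 0.96 with replicates 2 and 3 (adjusted p = 0.345). Angpt1, a ligand of the receptor Tie2, measured 7.26 in AFT024+KLS replicate 1 and 3.18 to 3.73 in the other 5 arrays.

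The largest changes with replicates 2 and 3 among genes not yet named with all arrays included some in which replicate 1 differed. Tmprss11f, a membrane serine protease, measured 3.97, 7.47 and 7.27 in AFT024+KLS and 5.86, 4.75 and 4.45 in AFT024-KLS (difference 2.77 with replicates 2 and 3, adjusted p = 4.15e-05). Prl2c5, of the prolactin family with near-identical copies, measured 5.43, 7.67 and 8.99 in AFT024+KLS and 9.05, 6.09 and 6.08 in AFT024-KLS. For these genes and for Sprr1b, of the epidermal envelope, with a difference of 2.18, replicate 1 of the conditions lay in the opposite order. Tll1, a procollagen-processing protease, and Tmem45a had differences of 2.13 and 2.03 with replicates 2 and 3. In replicate 1, Tll1 was nearly equal, at 6.01 in AFT024+KLS and 5.95 in AFT024-KLS, while Tmem45a measured 6.98 and 5.26. Neither was called with all arrays (adjusted p = 0.128 and 0.163).

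Among those that fell, P3h2, a collagen prolyl 3-hydroxylase, measured 8.02, 7.10 and 7.03 in AFT024+KLS and 7.28, 9.26 and 9.34 in AFT024-KLS (difference -2.23 with replicates 2 and 3, adjusted p = 0.03). Gas2, a protein of the actin cytoskeleton, measured 5.45, 5.73 and 5.87 in AFT024+KLS and 5.80, 7.65 and 7.66 in AFT024-KLS. Fbln5, an elastic fibre protein, measured 5.77, 5.84 and 5.79 in AFT024+KLS and 5.91, 7.37 and 7.25 in AFT024-KLS. AFT024-KLS replicate 1 lay within or near the AFT024+KLS range in each of these genes. The differences of Gas2, Ifit3b, Il17rd, Fbln5, Krtap1-5, Parp11 and Nrp1 with replicates 2 and 3 ran from -1.85 to -1.36. In Ifit3b, Il17rd, Krtap1-5, Parp11 and Nrp1, AFT024-KLS replicate 1 also lay within, near or below the AFT024+KLS range. None of the genes of this paragraph was called with all arrays, so these falls depend on leaving out replicate 1. Nrp1, neuropilin, is a co-receptor for semaphorins and VEGF, and Il17rd is an inhibitor of FGF signalling.

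Other lists held few calls. Ccn2, a matricellular protein, was the 1 of 23 contractile genes that rose (1.04, adjusted p = 0.0092, and 1.20 with replicates 2 and 3). Of all genes, 0.291% rose with all arrays and 0.797% with replicates 2 and 3. The imprinted adaptor gene Grb10 rose by 0.85 and the lipoprotein receptor gene Vldlr, counted with the unfolded protein response, by 1.53, and by 0.64 and 1.25 with replicates 2 and 3. With replicates 2 and 3, the unfolded protein gene Herpud1 (1.48), Myc (1.59) and the collagen gene Col4a2 (0.60) also rose, and the Wnt effectors Lef1 (-0.71) and Tcf7l2 (-0.66), Tgfb3 (-1.03), Mecom (-1.10) and Omd (-1.28) fell. Cd68, a lysosomal protein used as a macrophage marker, measured 7.26, 8.43 and 8.63 in AFT024+KLS and 6.55, 7.16 and 7.32 in AFT024-KLS. It was the 1 of 19 monocyte and macrophage markers called (1.29 with replicates 2 and 3, adjusted p = 0.0135), where 0.797% of all genes rose. The mean of these 19 markers was 4.75 to 4.85 in AFT024+KLS and 4.66 to 4.77 in AFT024-KLS. Of 38 lists, 19 had no call under either setting, among them those of cell cycle genes, p53 targets and senescence genes, complement, Notch and endothelial genes.

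The response was then set beside that of BFC012. The differences of the 2 lines share no array, but with all arrays both were tested against the same pooled spread. A gene with a small spread is thus more easily called in both lines, and the shared calls are not independent. In BFC012, 173 genes were called with all arrays (0.868%) and 1582 with replicates 2 and 3 (7.93%). The fit of AFT024 with replicates 2 and 3 (225 genes) kept replicate 1 of both BFC012 groups in the pooled spread. That of BFC012 did not, so counts and shares under this setting are not directly comparable between the lines. With replicate 1 of AFT024+KLS, AFT024-KLS and BFC012-KLS left out, an alternative chosen after seeing the data, 1177 genes were called in AFT024. Of the 58 genes that rose in AFT024, 20 rose in BFC012 too, which is 34.5% of the AFT024 list and 16.5% of the 121 that rose in BFC012. Of the 11 that fell, Igf1, Mex3a, Tm4sf1 and Znhit6 fell in both, 36.4% and 7.69% of the lists. With replicates 2 and 3 the shares were 28.9% and 5.49% for higher genes and 19.7% and 1.75% for lower genes. In the replicate 1 arrays without KLS cells the 2 lines deviated together from replicates 2 and 3, with a correlation of 0.67 across genes.

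Fkbp5, Orm1, Orm3, Ctla2a, Tsc22d3, Mt1 and Mt2 rose in both lines. The difference of Fkbp5 was 2.85 in AFT024 and 3.12 in BFC012, that of Orm1 2.69 and 3.10, and that of Mt2 2.82 and 4.24. The acute-phase genes Hp and Lcn2 had 1.76 and 1.01 in AFT024 and 3.65 and 4.04 in BFC012. The test of the difference for Hp gave -1.89 ± 0.32 (SE, adjusted p = 0.0975) with all arrays and -2.38 (adjusted p = 0.00111) with replicates 2 and 3. Kitl, higher in each AFT024+KLS array than in any AFT024-KLS array but not called in AFT024, rose by 2.62 in BFC012 (adjusted p = 0.00476). Neither Kitl nor Lcn2 passed the test of the difference between the lines with all arrays.

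The test of the difference between the lines called 8 genes with all arrays (0.0401%) and 581 with replicates 2 and 3 (2.91%). Rhoj, a small GTPase, measured 9.05, 8.50 and 8.42 in AFT024+KLS and 7.49, 7.26 and 7.25 in AFT024-KLS. It rose by 1.32 in AFT024 and fell by 1.05 on the log2 scale in BFC012, and the difference of 2.37 ± 0.25 (SE) passed the test (adjusted p = 0.0218). Dpep1, a membrane dipeptidase, measured 6.51, 6.80 and 6.54 in AFT024+KLS, against 5.22, 4.98 and 4.96 in AFT024-KLS. It rose by 1.56 in AFT024 and had 0.36 in BFC012 (difference 1.20 ± 0.15, SE, adjusted p = 0.0316). With replicates 2 and 3 the differences were 2.36 and 1.33 (adjusted p = 3.15e-05 and 0.00256).

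The other 6 genes were higher with KLS cells in BFC012 and not called in AFT024. Fmo1, a flavin monooxygenase, had 0.22 in AFT024 and 3.29 in BFC012, and Tmem119 had -0.02 and 1.65. Nnmt, which methylates nicotinamide, had 0.60 and 1.99. The remaining 3 were Tdpoz8, Ap4e1 and the sheddase gene Adam10, with -0.17, -0.22 and -0.25 in AFT024 and 1.13, 0.88 and 0.75 in BFC012. Ccbe1 and Fgl1, at 1.87 and 1.85 in AFT024 and 0.02 and 0.09 in BFC012, did not pass the test of the difference with all arrays (adjusted p = 0.167 and 0.182). Ccbe1 passed with replicates 2 and 3 (2.34, adjusted p = 0.000119). The count of 8 became 33 without AFT024+KLS replicate 1, 47 without BFC012-KLS replicate 1, and 16 without AFT024-KLS replicate 1. It was 2 without AFT024+KLS replicate 3, 3 without BFC012+KLS replicate 3, 1 without BFC012-KLS replicate 3, and 0 without replicate 2 of any of the 4 groups or AFT024-KLS replicate 3.

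**Figure D5:**
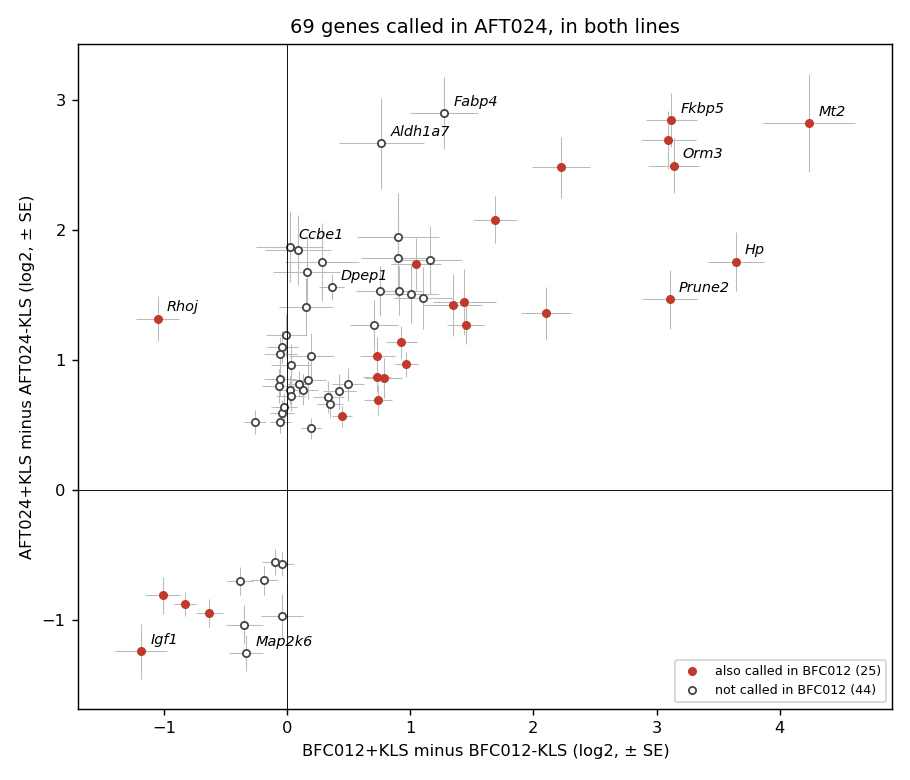
Difference with KLS cells of the 69 genes called in AFT024 (y axis, AFT024+KLS minus AFT024-KLS, log2 ± SE) against the same genes in BFC012 (x axis, BFC012+KLS minus BFC012-KLS, log2 ± SE), filled where the gene was also called in BFC012. Rhoj is the filled point left of 0 on the x axis and above 0 on the y axis. Igf1, Mex3a, Tm4sf1 and Znhit6 are filled points below 0 on both axes. Mt2 and Hp lie farthest right, and Fabp4 and Aldh1a7 are among the highest of the open points.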

How the data were processed

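RNA from sorted stroma (100 ng) was read on the Affymetrix mouse gene 1.0 ST platform, as the labels state. The authors deposited log2 signals per probe set; the submitters' processing notes name RMA and Partek, with no version or settings known here. The number of arrays limits the precision. Of 35556 probe sets, 21789 name 1 gene symbol in the platform annotation, 1621 several and 12146 none. For the 999 genes with several probe sets the brightest on average across the 12 sorted arrays was used, leaving 19938 genes, with no filter on low signal.

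The fits used limma 3.58.1 under R 4.3.3, with a mean per group over the 12 sorted arrays, which pools the spread of the 4 groups, with moderated statistics, two-sided p-values and Benjamini-Hochberg adjustment over all genes, at a threshold of 0.05. For replicates 2 and 3 only, the response of AFT024 was fitted without replicate 1 of both AFT024 groups (10 arrays), and BFC012 and the difference between the lines without replicate 1 of all 4 groups. The code was tested on simulated data. Alternatives were each array left out, array weights, replicate blocks, renormalization, other probe set rules and AFT024 arrays alone.

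Named genes were the 12 largest differences per direction among called genes without overlap (remaining places to the smallest p-values), the 8 largest per direction with replicates 2 and 3 not named before, the 6 largest of each list with 3 or more members called under either setting, and the 6 largest per direction for the difference between lines. Clone-like, Mir, Snora, Snord, Olfr and Vmn symbols were left out. Other genes were chosen after their values were seen. The members and the 38 gene lists (896 genes, 811 measured) were chosen with earlier results of these data known. Python 3.11.15 and matplotlib 3.10.9 drew the plots.

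Same-numbered arrays of AFT024+KLS and AFT024-KLS did not deviate together, so the numbers were not taken as pairs.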

Additional observations from a re-analysis of the deposited data

Results flagged for a closer look

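For 8 genes the response to KLS cells differed between the lines by the test of the difference itself, given here as AFT024 minus BFC012 on the log2 scale with all arrays. Rhoj (2.37) rose in AFT024 and fell in BFC012, and Dpep1 (1.20) had the larger difference in AFT024. Fmo1 (-3.07), Tmem119 (-1.67), Nnmt (-1.39), Tdpoz8 (-1.30), Ap4e1 (-1.10) and Adam10 (-1.0) had the larger difference in BFC012. All 8 were also called with replicates 2 and 3 only, and the groups of 3 arrays were too small to be searched for single outlying values.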

How the results depend on the processing

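The 28 called genes named for the largest differences with all arrays or from a list kept their sign under each alternative run. The groups did not overlap in any of them, so leaving out arrays could not reverse a sign. Of these genes, 13 lost the call with a replicate block within each line, 20 with the 6 AFT024 arrays alone and 28 with a block over those 6. The call count of the AFT024 response (69) was most sensitive to how replicate 1 and the pooled spread were treated: 225 with replicates 2 and 3 only (159 higher, 66 lower), 691 with array weights (430 higher, 261 lower), 1177 (673 higher, 504 lower) with 3 outlying arrays left out (replicate 1 of AFT024+KLS, AFT024-KLS and BFC012-KLS, an alternative chosen after seeing the data), 973 with the 4 AFT024 arrays of replicates 2 and 3 alone and 11 with the 6 AFT024 arrays alone. Counts of at least 2-fold calls came to 39. Leaving out 1 array gave 22 to 146. It stayed between 55 and 77 after median centring, repeated quantile normalization, a trended robust variance, among the brighter genes and with the mean of a gene's probe sets. The difference between the lines (8 genes) gave 581 with replicates 2 and 3, 191 with array weights, 744 with the 3 outlying arrays left out, 5 with a trended robust variance and 0 to 47 with 1 array left out. The numbers do not pair AFT024+KLS with AFT024-KLS (correlations of deviations -0.03, 0.04 and -0.10). With a replicate block within each line the counts were 39 and 1, and with a replicate block over the 6 AFT024 arrays alone 0 in limma, where 1439 genes had an unadjusted p under 0.05. The cause of these shifts was not tested beyond the arrays named.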

Other observations

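A few genes set replicate 1 arrays apart. Fabp7, a brain-type fatty acid binding protein, and Sparcl1, a matrix glycoprotein related to Sparc, measured 9.58 and 10.13 in AFT024+KLS replicate 1, against 5.27 to 6.39 and 4.85 to 6.25 in the other 5 arrays. Sparcl1 was still higher in each AFT024+KLS array than in any AFT024-KLS array. Its difference was 2.10 with all arrays and 0.51 with replicates 2 and 3, and it was not called under either setting. Aspn, the small proteoglycan asporin, lay far from replicates 2 and 3 in both replicate 1 arrays and changed the sign of its difference when both were left out. It measured 10.59, 7.57 and 7.40 in AFT024+KLS and 5.13, 8.51 and 8.62 in AFT024-KLS, a difference of 1.10 with all arrays (adjusted p = 0.805) and of -1.08 with replicates 2 and 3 (adjusted p = 0.00594). Of the 225 genes called with replicates 2 and 3, 3 had the opposite sign with all arrays: Aspn, Igsf11 and Msln.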
